A study of Mus musculus with 10 samples.

Results

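Cathepsins are proteases of the lysosome, and cystatin C is a secreted protein that blocks the cysteine type of them. The 9 genes followed here are 8 cathepsin genes and the cystatin C gene Cst3. They were taken by name as a family, chosen with earlier results of these data known. They were found by symbol among the 52181 gene entries of the table, of which 16620 held a molecule count. All 9 were measured in phagocytes isolated from the retina and the optic nerve of mice by droplet single-cell RNA sequencing, which tags each captured transcript at its 3′ end with a unique molecular identifier (UMI). Across the 1168 cells these 9 genes gave 352294 of the 7920570 UMIs.

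Microglia are the resident phagocytes of the nervous system, and macrophages are related cells at its borders or from the blood. They take up debris into vesicles that fuse with lysosomes, where cathepsins cut proteins at acid pH. Cathepsins are made as inactive precursors, are sorted to lysosomes through mannose 6-phosphate receptors, and can also be secreted. Cystatin C is a widely used marker of brain and retinal microglia at the RNA level, and it acts mainly outside cells or after uptake.

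The samples were wild-type 129S1/SvlmJ mice of both sexes, 10 weeks old at collection, in 4 groups. Injured retina and injured optic nerve came from mice whose optic nerve had been crushed at 8 weeks of age, 2 weeks before collection. Uninjured retina and uninjured optic nerve came from mice with no crush. Crush severs the axons of retinal ganglion cells, so the optic nerve holds the lesion itself and the retina holds the cell bodies of the cut axons. The study describes 10 samples, and the table separates 8 libraries, 2 per group, because injured retina is given as 2 pools, each of 2 samples. The labels call the cells retinal or optic nerve microglia/macrophage and do not say how many animals gave each sample, so the p-values below measure the spread between libraries.

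Depth differed between libraries. Pools 1 and 2 and 3 and 4 of injured retina gave 1420930 and 310892 UMIs from 109 and 57 cells, and uninjured retina libraries 5 and 6 gave 142787 and 56838 UMIs from 31 and 12 cells. Injured nerve libraries 1 and 3 gave 318715 and 5234954 UMIs from 146 and 682 cells, and uninjured nerve libraries 2 and 4 gave 351333 and 84121 UMIs from 103 and 28 cells. Uninjured retina held UMIs only in the first 27998 entries of the table. For later entries annotation or merging cannot be told apart from injury in retina, or from tissue between the uninjured groups. All 9 genes lie in the first 27998 entries, and all levels and tests use those entries alone. Whether reads were assigned to genes alike in all libraries within those entries was not tested. Summed over 12 microglia markers the level was 16099 to 17085 CPM (a gene's UMIs scaled to a library of 1000000 UMIs) in injured retina and 28385 to 31669 in uninjured retina, and 19062 to 23042 in injured nerve and 15239 to 15467 in uninjured nerve. Fcrls was the only marker of that list with no UMI in a library, pool 3 and 4 of injured retina. It had 1 UMI in pool 1 and 2, against 52 and 19 UMIs in uninjured retina libraries 5 and 6, and the part of annotation in this was not tested. The heat-shock gene Hspa1b stood higher in injured retina, by 3.13 (log2; edgeR adjusted p = 0.000483), and lower in injured nerve, by -5.52 (limma adjusted p = 0.00378), each against its uninjured tissue, and the part of such stress in the results was not tested. Libraries 1 and 3 of injured nerve shared 2 cell barcodes.

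Other cells were present and bear on every value below. T and NK-like cells were 20.2% and 42.1% of the injured retina pools and 0 of 31 and 0 of 12 cells of uninjured retina, counts that allow up to 9.68% and 25% of cells. Border macrophage-like cells, led by Ccl7, Mrc1 and F13a1, were 6.16% and 4.25% of injured nerve libraries 1 and 3, and 42.7% and 3.57% of uninjured nerve libraries 2 and 4. Oligodendrocyte-like cells were 8.90% and 6.89% of injured nerve libraries 1 and 3, and 22.3% and 14.3% of uninjured nerve libraries 2 and 4. With 9 endothelial-like cells these classes took 228 cells, and the remaining 940 cells met no naming rule. In summed UMIs, fewer cells of a type and less RNA per cell cannot be told apart.

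The 9 genes sit on 6 chromosomes of the mouse genome (build GRCm38, GENCODE M21 annotation), and all are protein-coding. Ctsd spans 142375911 to 142388038 of chromosome 7 (minus strand), and Ctsc spans 88278085 to 88310888 of the same chromosome (plus strand). Chromosome 2 holds Ctsz at 174427493 to 174439039 (minus), Ctsa at 164832873 to 164841032 (plus) and Cst3 at 148871722 to 148875692 (minus). Ctsb lies at 63122462 to 63145923 of chromosome 14 (plus), Ctsl at 64359337 to 64370890 of chromosome 13 (minus), Ctss at 95526786 to 95556403 of chromosome 3 (plus) and Ctsh at 90054152 to 90076089 of chromosome 9 (plus). Ctsh and Cst3 overlap no other annotated gene. Ctsd, Ctsl and Ctss each overlap an annotated gene or pseudogene on the same strand (Gm49369, Gm49230 and Hmgb1-ps5), so some of their UMIs could be assigned elsewhere or lost.

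Short stretches before RefSeq start sites of these genes are shown. Lysosomal genes are known to share a regulatory element, the CLEAR element, bound by the factor TFEB at its E-box core CACGTG. The start regions come from RefSeq (build GRCm38.p6) and run from 250 bases before to 50 bases after each start site. Not all of these start sites match the ends of the GENCODE spans above. Below, the stretches of Ctsl and Ctsa and the nearer stretch of Ctsd lie inside those spans. Windows were given for 7 of the 9 genes, all but Ctsb and Ctsh. The core CACGTG, a palindrome that reads alike on both strands, was found at 2 places for Ctsd, once for Ctsl, and at 2 places in the second of the windows of Ctsa. It was not found in the windows of Ctsz, Ctss, Ctsc and Cst3. Of all 32851 such windows 7.15% hold it, and of 27025 genes 8.09% have it in some window. The full CLEAR palindrome is the core with GT before and AC after it. In these exact letters it was found for no member and stands in 0.326% of windows. Variants of the element were not searched, so the lack of a match does not show that it is absent. Capitals mark the core below, written 5′ to 3′ on the gene's strand.
Ctsd, 245 bases before the start, chr7:142388055-142388077, minus strand: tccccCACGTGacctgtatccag
Ctsd, 98 bases before the start, chr7:142387908-142387937, minus strand: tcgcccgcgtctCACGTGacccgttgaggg
Ctsl, 236 bases before the start, chr13:64370739-64370768, minus strand: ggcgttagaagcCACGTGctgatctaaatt
Ctsa, 12 bases before the start, chr2:164833749-164833772, plus strand: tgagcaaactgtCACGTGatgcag

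Ctss and Ctsc hold other motifs of immune cells. The interferon-stimulated response element, searched on both strands as a pair of GAAA with any 2 bases between, was found for Ctss and stands in 3.44% of all windows. The core GAGGAAGT, bound by the myeloid factor PU.1 and searched on both strands, was found for Ctss and Ctsc and stands in 3.20% of windows. Capitals mark the response element for Ctss and the PU.1 core, read on the opposite strand, for Ctsc. A match in these letters is a description and not a shown binding site.
Ctss, 21 bases before the start, chr3:95526755-95526784, plus strand: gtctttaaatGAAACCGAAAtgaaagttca
Ctsc, 151 bases before the start, chr7:88277923-88277952, plus strand: gtcactaactaACTTCCTCaggccacctcg

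Levels are given as CPM of the UMIs summed over each library. Where groups are said below not to overlap, the share of all genes without overlap was not counted. Each transcript is counted at its 3′ end once, so levels of different genes are set side by side without division by length. Cst3 led in 7 of the 8 libraries, and Ctsd led in injured nerve library 3. Together the 9 genes took 2.75% and 2.46% of UMIs in injured retina pools 1 and 2 and 3 and 4, against 4.94% and 5.61% in uninjured retina libraries 5 and 6. They took 3.82% and 5.26% in injured nerve libraries 1 and 3, against 1.97% and 3.07% in uninjured nerve libraries 2 and 4. The share was thus lower in both injured than in both uninjured retina libraries, and higher in both injured than in both uninjured nerve libraries. The nerve groups overlapped once other cells were left out. The summed level of the 9 genes was 42158 and 54001 CPM in injured nerve and 23223 and 49617 CPM in uninjured nerve without the T-like, endothelial-like and oligodendrocyte-like cells, and 48133 and 55374 CPM in injured nerve and 47312 and 57041 CPM in uninjured nerve with border macrophage-like cells left out too.

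**Figure D1:**
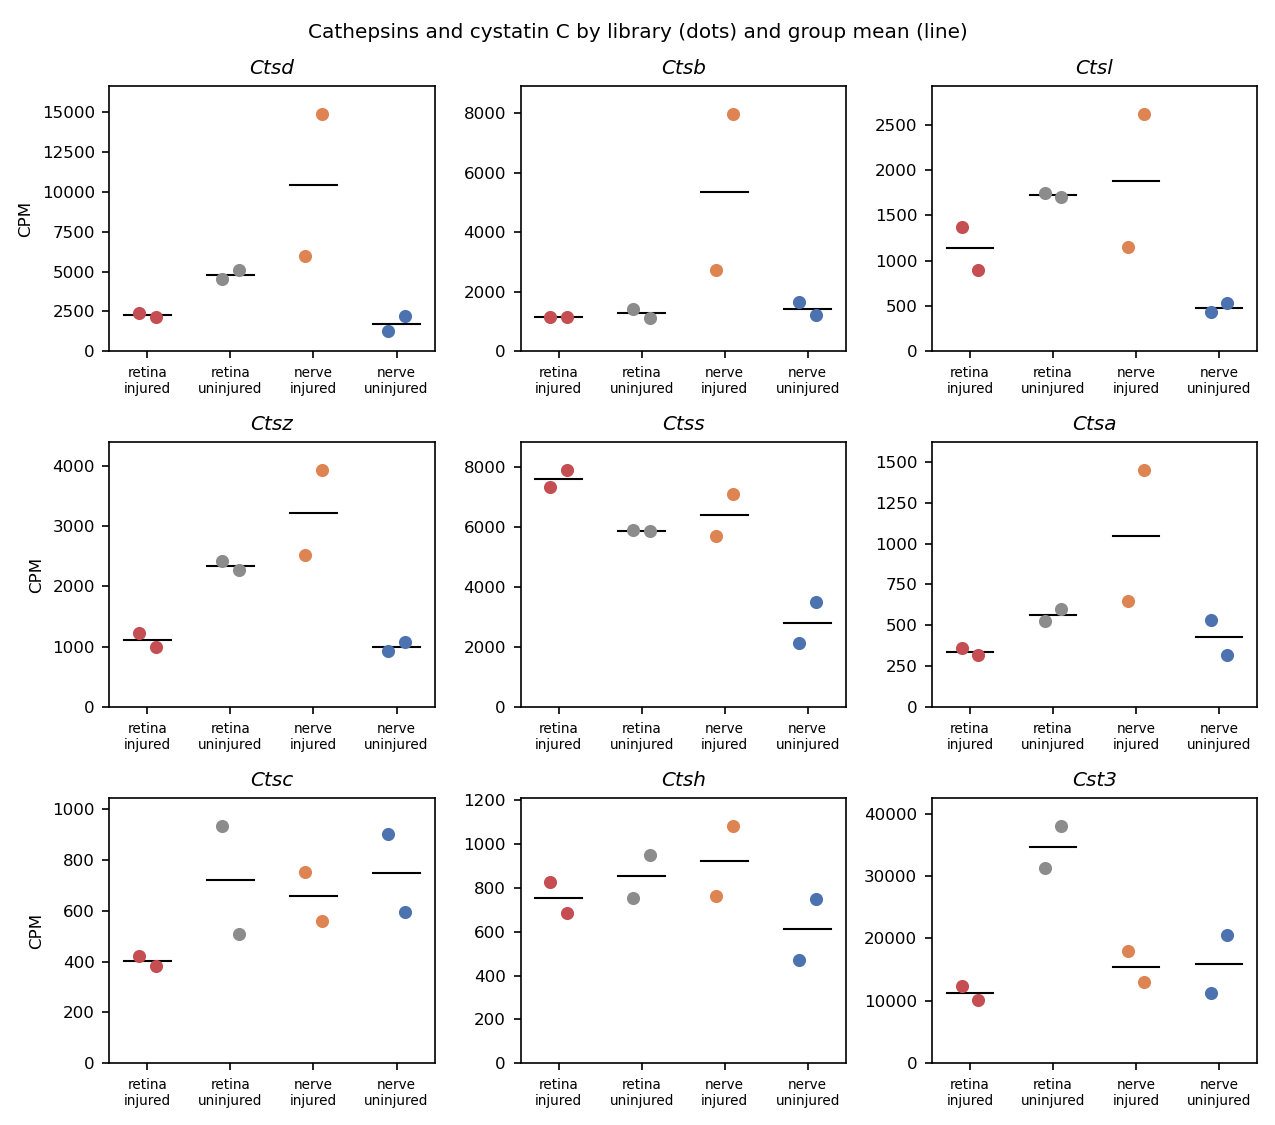
Level of each of the 9 genes in CPM (vertical axis, from 0, a scale of its own in each panel) in 8 libraries (dots) of 4 groups, with a line at the mean of each group's 2 libraries. Ctsd reached 14871 CPM in an injured nerve library, and Cst3 was 31214 and 37950 CPM in uninjured retina.

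Crush was compared within the retina first, on raw UMI counts with edgeR's quasi-likelihood test and Benjamini-Hochberg adjustment over 3312 genes. Transcripts of cystatin C and of the lysosomal proteases Ctsd and Ctsz fell in injured retina. The other 6 genes did not pass. Of all genes tested 19.7% were called, 9.99% higher and 9.72% lower, beside 3 of the 9 members called lower. The members were chosen with earlier results of these data known, so no excess is read from these shares. The median log2 change of the 9 genes was -0.69, against 0.069 over all genes (0.18 with DESeq2 size factors). No gene of the 9 was called higher, and none of the 9 was higher at an unadjusted p under 0.05. The DESeq2 Wald test called 3 lower and 0 higher. Only 1 member was called with DESeq2 size factors, without the filter on low counts, or with edgeR or limma over 8 libraries.

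Cst3, the inhibitor, had 12385 and 10179 CPM in injured retina, against 31214 and 37950 CPM in uninjured retina. The groups were far apart and did not overlap. The log2 change was -1.58 ± 0.32 (SE; edgeR adjusted p = 0.00643), about 2.99-fold lower. Without injured pool 1 and 2 the adjusted p was 0.0650 and without pool 3 and 4 it was 0.111, at changes of -1.65 and -1.29, within a range of 1.3e-15 to 0.111 over 13 alternatives.

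Ctsd encodes the main aspartic protease of the lysosome. It had 2385 and 2141 CPM in injured retina, against 4517 and 5085 CPM in uninjured retina. Both injured pools lay below both uninjured libraries. The log2 change was -1.06 ± 0.27 (edgeR adjusted p = 0.0205). Without pool 1 and 2 it was -1.05 (adjusted p = 0.249) and without pool 3 and 4 it was -0.82 (adjusted p = 0.332), within a range of 0.000113 to 0.332 over the alternatives.

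Ctsz encodes cathepsin Z, also called X, a cysteine protease that removes single amino acids from the C-terminal end. It had 1237 and 998 CPM in injured retina, against 2423 and 2270 CPM in uninjured retina, again without overlap. The log2 change was -1.05 ± 0.28 (edgeR adjusted p = 0.0222). It did not pass without pool 1 and 2 (-1.14, adjusted p = 0.193), without pool 3 and 4 (-0.75, adjusted p = 0.381) or without uninjured library 5 (-0.70, adjusted p = 0.0867), within a range of 0.000114 to 0.381.

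Ctss, the cathepsin that trims the class II invariant chain in antigen-presenting cells and keeps activity near neutral pH, stood at 7354 and 7893 CPM in injured retina, against 5904 and 5859 CPM in uninjured retina. The groups did not overlap, and the change of 0.39 ± 0.28 did not pass (edgeR adjusted p = 0.348, 95% interval -0.23 to 1.01). Without uninjured library 5 it passed, at 0.69 (adjusted p = 0.0348, range 0.0348 to 0.977). Ctsl, an endopeptidase, had 1378 and 895 CPM in injured retina and 1744 and 1707 CPM in uninjured retina, a change of -0.58 ± 0.29 (edgeR adjusted p = 0.180). Ctsa encodes a serine carboxypeptidase that also stabilises the lysosomal enzymes neuraminidase 1 and beta-galactosidase. It had 365 and 316 CPM in injured retina and 525 and 598 CPM in uninjured retina, a change of -0.69 ± 0.25 (edgeR adjusted p = 0.0767).

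Ctsc, the dipeptidyl peptidase that activates granzymes and neutrophil proteases, had 423 and 384 CPM in injured retina. Uninjured libraries 5 and 6 had 931 and 510 CPM, and the change was -0.89 ± 0.33 (edgeR adjusted p = 0.0752). Without library 6 it passed, at -1.26 (adjusted p = 0.000694, range 0.000694 to 0.985). Its uninjured libraries lay farther apart than the nearest libraries of the 2 groups. Ctsb, a cysteine protease with endo- and exopeptidase activity, had 1139 and 1150 CPM in injured retina and 1429 and 1126 CPM in uninjured retina, with overlap (-0.17 ± 0.28, edgeR adjusted p = 0.704). Ctsh, an aminopeptidase, had 826 and 685 CPM in injured retina and 756 and 950 CPM in uninjured retina, with overlap (-0.13 ± 0.26, edgeR adjusted p = 0.753).

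Cst3 lay with the microglia markers, whose summed level was also lower in both injured pools, and their part in its change was not tested. T and NK-like cells, which among retina libraries were found in the injured pools alone, held almost none of these transcripts. In their 161255 UMIs Cst3 had 37.2 CPM, Ctsd 31.0 CPM, Ctss 186 CPM and Ctsh 0. Without T-like, endothelial-like and oligodendrocyte-like cells Cst3 was at 13459 and 11996 CPM in injured retina, against 31088 and 37950 CPM in uninjured retina. The change was then -1.36 for Cst3 (edgeR adjusted p = 0.00211), -0.86 for Ctsd (0.0243) and -0.83 for Ctsz (0.0346), so all 3 were called without these cells too. Ctsb and Ctsh turned to 0.047 and 0.084 without them.

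In the optic nerve the direction was the other for Ctsd and Ctsz. Crush was tested there with limma on log2(CPM + 10) over all 8 libraries and 2693 genes, with scaling by TMM, a factor per library that aligns the bulk of genes. Ctsd rose, and the other 8 did not pass. Of all genes 0.557% were called, 0.446% higher and 0.111% lower. All 9 fitted changes were above 0 with TMM, of which Ctsc stood at -0.17 by library total, and their median was 1.68, against 0.33 over all genes. Scaled by library total that median was -0.08, so the values are read relative to 0.33. The calls were 80.0% higher with TMM and 53.3% higher by library total. No member was called lower, and none was lower at an unadjusted p under 0.05 (7 were higher). Ctsh, the last of these 7, ranked 253 of 2693 genes by p in either direction. The share of all genes under that unadjusted p is not given, so the count of 7 is a description. edgeR on the recovered counts of 8 libraries called 2 members, both higher.

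Ctsd had 5975 and 14871 CPM in injured nerve, against 1280 and 2196 CPM in uninjured nerve. Both injured libraries stood above both uninjured ones, and the injured libraries themselves lay far apart. The log2 change was 2.94 ± 0.50 (limma adjusted p = 0.0286). It kept its direction in all 18 alternatives and did not pass in 8 of them, within a range of 0.00544 to 0.202. Leaving out injured library 3 gave 2.09 (adjusted p = 0.202), uninjured library 2 gave 2.66 (0.0767) and uninjured library 4 gave 3.19 (0.0975). Leaving out injured retina pool 1 and 2 or pool 3 and 4, which enter this fit through the spread and the scaling, gave 2.94 (0.0853) and 2.90 (0.0899).

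Ctsz had 2514 and 3921 CPM in injured nerve, against 937 and 1074 CPM in uninjured nerve. The groups did not overlap, and the change was 2.09 ± 0.41 (limma adjusted p = 0.0578, range 0.0124 to 0.379 over 18 alternatives, 9 of which called it). Ctsl had 1155 and 2615 CPM in injured nerve, against 429 and 537 CPM in uninjured nerve (2.29 ± 0.50, limma adjusted p = 0.0843). Ctsb had 2751 and 7966 CPM in injured nerve, against 1646 and 1205 CPM in uninjured nerve (2.18 ± 0.56, limma adjusted p = 0.114). For each of these genes injured library 3 was the highest of all 8 libraries, and injured library 1 lay between it and the uninjured nerve. Without injured library 1, which lies nearer the uninjured nerve, all 3 passed: Ctsz at 2.53 (adjusted p = 0.0234), Ctsl at 2.997 (0.0162, range 0.0162 to 0.438) and Ctsb at 3.07 (0.0177, range 0.0177 to 0.573). Ctsz also passed without uninjured retina library 5 or 6 (0.0482 and 0.0474).

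Ctss had 5717 and 7108 CPM in injured nerve, against 2128 and 3497 CPM in uninjured nerve (1.68 ± 0.37, limma adjusted p = 0.0843), and passed without uninjured retina library 6 (0.0474, range 0.0354 to 0.512). Ctsa had 650 and 1446 CPM in injured nerve, against 534 and 322 CPM in uninjured nerve (1.65 ± 0.51, limma adjusted p = 0.171). Ctsh had 763 and 1081 CPM in injured nerve, against 471 and 752 CPM in uninjured nerve (1.05 ± 0.39, limma adjusted p = 0.230). Ctss, Ctsa and Ctsh did not overlap between the groups, and injured library 1 came close to the nearer uninjured library for Ctsa and Ctsh.

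Ctsc and Cst3 behaved differently from the rest in CPM. Ctsc had 754 and 558 CPM in injured nerve and 900 and 597 CPM in uninjured nerve, with overlap, at 0.28 ± 0.46 (limma adjusted p = 0.809), and scaled by library total its change was -0.17. Cst3 had 17951 and 13029 CPM in injured nerve and 11331 and 20540 CPM in uninjured nerve, at 0.46 ± 0.35 (limma adjusted p = 0.531, 95% interval -0.30 to 1.22). The injured libraries lay inside the range of the uninjured ones.

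**Figure D2:**
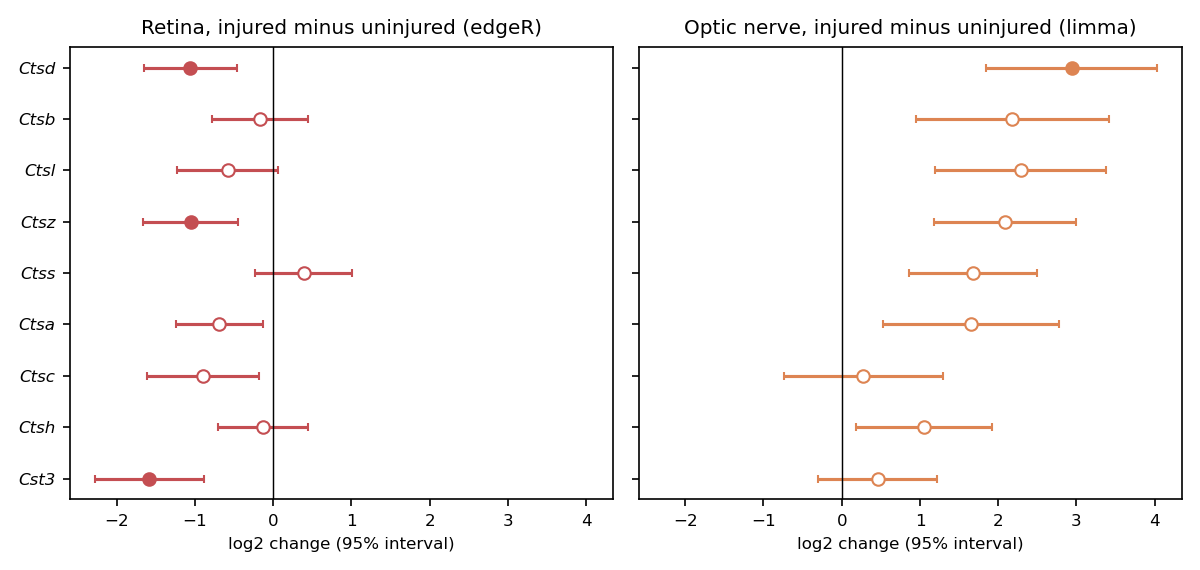
Log2 change with crush, injured minus uninjured, for the 9 genes (points) with 95% intervals from edgeR in retina (left) and limma in optic nerve (right); filled points passed an adjusted p of 0.05. In retina 8 of 9 points lie below 0 and in optic nerve all 9 lie above it with TMM scaling (Ctsc stood at -0.17 by library total), where the median over all genes is 0.33.

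Other cell classes were most frequent in uninjured nerve, where border macrophage-like cells were 44 of the 103 cells of library 2. Within that library Ctsd was at 958 CPM in border macrophage-like cells, 445 CPM in oligodendrocyte-like cells and 2779 CPM in the remaining cells. Cst3 was at 4715, 2062 and 35251 CPM in the same 3 classes of library 2. Ctsc was at 1249, 82.5 and 661 CPM, highest in the border macrophage-like cells.

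In the remaining cells alone Ctsd had 7749 and 15800 CPM in injured nerve, against 2779 and 4229 CPM in uninjured nerve. The groups stayed apart, at a change of 2.31 (limma adjusted p = 0.0395). Ctsz, at 3123 and 4135 CPM in injured nerve and 992 and 1507 CPM in uninjured nerve, then passed as well (2.16, limma adjusted p = 0.0395). Ctsb, at 3127 and 8408 CPM in injured nerve and 1029 and 1701 CPM in uninjured nerve, also passed (2.56, limma adjusted p = 0.0431). Leaving out the T-like, endothelial-like and oligodendrocyte-like cells but keeping border macrophage-like cells gave 2.51 for Ctsd (adjusted p = 0.0930), which did not pass. The choice to leave out border macrophage-like cells was made after seeing the data.

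Cst3 turned round in the remaining cells. It had 23222 and 13654 CPM in injured nerve, against 35251 and 39396 CPM in uninjured nerve. Both injured libraries then lay below both uninjured ones, whereas in all cells the groups overlapped. The fitted change was -0.45 and did not pass (limma adjusted p = 0.438, range 0.360 to 0.996 over 18 alternatives). In these cells the level of Cst3 in uninjured nerve was near that of uninjured retina, at 31088 and 37950 CPM.

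**Figure D3:**
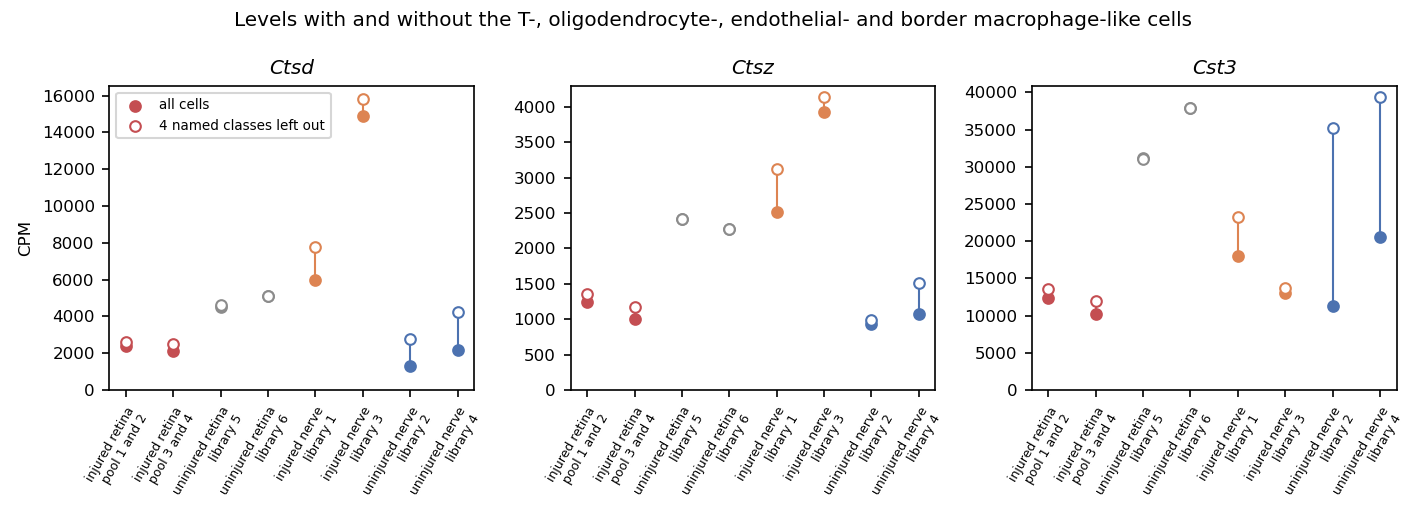
CPM of Ctsd, Ctsz and Cst3 per library over all cells (filled) and without the T-like, oligodendrocyte-like, endothelial-like and border macrophage-like cells (open), vertical axes from 0. Cst3 in uninjured nerve libraries 2 and 4 was 11331 and 20540 CPM over all cells and 35251 and 39396 CPM without these classes.

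The response to crush differed between tissues for 2 of the 9 genes. The interaction, the change in optic nerve minus the change in retina, was tested with limma over the 8 libraries, and 1.63% of 2693 genes were called, 0.743% higher and 0.891% lower. Ctsd had an interaction of 3.78 ± 0.70 (log2; limma adjusted p = 0.0197) and Ctsz of 2.92 ± 0.58 (limma adjusted p = 0.0288). Ctsd and Ctsz were called lower in injured retina and lay higher in every injured than in every uninjured nerve library, where Ctsz was not called. Ctsl and Ctsa had the same order of libraries in both tissues, without a call in either. All 9 interactions were above 0, with a median of 2.09, against 0.09 over all genes (-0.10 with scaling by library total). The interaction and the crush effect in nerve share the nerve libraries and are not separate evidence.

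The remaining interactions were 2.68 ± 0.70 for Ctsl and 1.83 ± 0.49 for Cst3 (limma adjusted p = 0.0819 each), 2.12 ± 0.72 for Ctsa (0.146) and 2.09 ± 0.79 for Ctsb (0.183). Ctss stood at 1.06 ± 0.53 (0.296), Ctsh at 0.98 ± 0.56 (0.355) and Ctsc at 0.80 ± 0.65 (0.514), and none of these 7 passed. Both called interactions kept their direction in 18 alternatives. Ctsd passed in 11 of them (adjusted p 0.000278 to 0.139) and Ctsz in 10 (0.00125 to 0.207). Neither passed without injured retina pool 1 and 2 (Ctsd 3.93, adjusted p = 0.0968, and Ctsz 3.14, 0.0984) or without pool 3 and 4 (3.60, 0.139, and 2.66, 0.207). The same held without injured nerve library 3 (2.93, 0.0525, and 2.41, 0.101) and uninjured nerve library 2 (3.51, 0.0532, and 2.94, 0.0542), and Ctsz also missed without uninjured nerve library 4 (2.88, 0.0837). Without T-like, endothelial-like and oligodendrocyte-like cells the interactions were 3.15 (0.0884) and 2.31 (0.103), and with border macrophage-like cells left out too they were 2.90 (0.0627) and 2.73 (0.0546). Without injured nerve library 1, Ctsl (3.40, 0.0174, range 0.0137 to 0.367), Ctsb (2.99, 0.0365, range 0.0174 to 0.490) and Ctsa (2.83, 0.0438, range 0.0149 to 0.474) passed as well.

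Between tissues without injury, Ctsl was lower in optic nerve and the other 8 genes did not pass. limma called 7.32% of genes, 4.08% higher and 3.23% lower in nerve. Ctsl had 429 and 537 CPM in uninjured nerve, against 1744 and 1707 CPM in uninjured retina, with no overlap and a change of -1.90 ± 0.50 (limma adjusted p = 0.0453). It passed in 7 of 18 alternatives (range 0.00163 to 0.154) and kept its direction in all. It missed the threshold without nerve library 2 (-1.88, 0.107), nerve library 4 (-1.93, 0.133), retina library 5 (-1.69, 0.124) or retina library 6 (-2.11, 0.0865), and without injured pool 1 and 2 (-1.90, 0.0716) or pool 3 and 4 (-1.90, 0.0704). Without T-like, endothelial-like and oligodendrocyte-like cells it was -1.51 (0.125).

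Cst3 stood at -1.25 ± 0.35 in uninjured nerve against uninjured retina (limma adjusted p = 0.0513). Without the 4 named classes it stood at -0.05 (0.958). Ctsd, Ctsz and Ctss stood at -1.59 ± 0.50, -1.30 ± 0.41 and -1.19 ± 0.37 (0.0758, 0.0791 and 0.0758). Ctsd passed without injured nerve library 1 or 3 (-1.58, 0.0336, and -1.59, 0.0278, range 0.00239 to 0.435). Ctsa at -0.50 and Ctsh at -0.58 were nearer 0, and Ctsb and Ctsc stood at 0.07 and 0.01. The members' median was -1.19, against -0.01 over all genes. No member was called higher or was higher at an unadjusted p under 0.05, while 5 were lower. Ctsz, the last of these 5, ranked 317 of 2693 genes by p in either direction. The share of all genes under that unadjusted p is not given, so the count of 5 is a description.

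Between injured tissues Ctsd was higher in nerve and the other 8 genes did not pass. The difference, injured nerve minus injured retina, was 2.19 ± 0.50 (limma adjusted p = 0.0416), where 2.56% of genes were called, 1.04% higher and 1.52% lower. Its levels of 5975 and 14871 CPM in injured nerve were above the 2385 and 2141 CPM of injured retina in every library. It passed in 12 of 18 alternatives (range 0.000880 to 0.381). Those that missed included leaving out injured nerve library 3 (1.34, 0.250), pool 1 and 2 (2.34, 0.235) and pool 3 and 4 (2.01, 0.381), and leaving out T-like, endothelial-like and oligodendrocyte-like cells (2.05, 0.120).

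Ctsb and Ctsz stood at 2.16 ± 0.56 and 1.62 ± 0.41 in injured nerve against injured retina (limma adjusted p = 0.0737 and 0.0703), without overlap. Without injured nerve library 1 these 2 passed, at 3.06 (0.0160, range 0.00245 to 0.452) and 2.08 (0.0390, range 0.00279 to 0.554), and so did Ctsa, at 2.33 (0.0390, range 0.0115 to 0.683). Ctsa stood at 1.62 ± 0.51 with all libraries (0.126), Ctsc at 0.81 ± 0.46 (0.409) and Ctsl at 0.78 ± 0.50 (0.462). Cst3 stood at 0.58 ± 0.35 (0.427) and Ctsh at 0.40 ± 0.39 (0.630). Ctss, at 5717 and 7108 CPM in injured nerve and 7354 and 7893 CPM in injured retina, was the only member with a value below 0 in this fit (-0.12 ± 0.37, 0.889). With each cell weighted equally its value was 0.070.

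The ratio of Cst3 to cathepsin transcripts differed between injured and uninjured libraries in both tissues. Amounts and activity of the proteins were not measured. Cst3 UMIs per UMI of the 8 cathepsins were 0.820 and 0.704 in injured retina, against 1.71 and 2.10 in uninjured retina. In nerve the ratio was 0.885 and 0.329 in injured libraries 1 and 3, against 1.36 and 2.02 in uninjured libraries 2 and 4. With the 8 cathepsins as the base, all 4 injured libraries were below 1 and all 4 uninjured libraries above it. Ctsd and Ctsa are not of the cysteine type that cystatin C blocks. Per UMI of the 6 cysteine cathepsins alone the ratio was 1.002 and 0.848 in injured retina, against 2.37 and 3.06 in uninjured retina, and 1.31 and 0.560 in injured nerve, against 1.74 and 2.68 in uninjured nerve. The groups of each tissue did not overlap on that base either, but the injured libraries were not all below 1. In the cells left without the 4 named classes the ratio to the 8 cathepsins was 0.824 and 0.706 in injured retina and 1.68 and 2.10 in uninjured retina, and 0.932 and 0.327 in injured nerve and 2.92 and 2.23 in uninjured nerve. This ratio was computed after the levels were known and is given as a description, without a test.

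The make-up of the cathepsin transcripts differed by tissue after injury. Ctss was 48.7% and 54.6% of the 8 cathepsins' UMIs in injured retina, against 32.4% and 32.4% in uninjured retina. Ctsd was 15.8% and 14.8% in injured retina, against 24.8% and 28.1% in uninjured retina. In nerve Ctss was 28.2% and 18.0% in injured libraries and 25.6% and 34.3% in uninjured libraries, with overlap. Ctsd was 29.5% and 37.6% in injured nerve, against 15.4% and 21.6% in uninjured nerve. Ctss was the most abundant of the 8 cathepsins in every retina library and in both uninjured nerve libraries. Ctsd was the most abundant in both injured nerve libraries, by 29.5% to 28.2% over Ctss in library 1. Ctsc was 3.72% and 1.41% in injured nerve, against 10.8% and 5.86% in uninjured nerve.

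**Figure D4:**
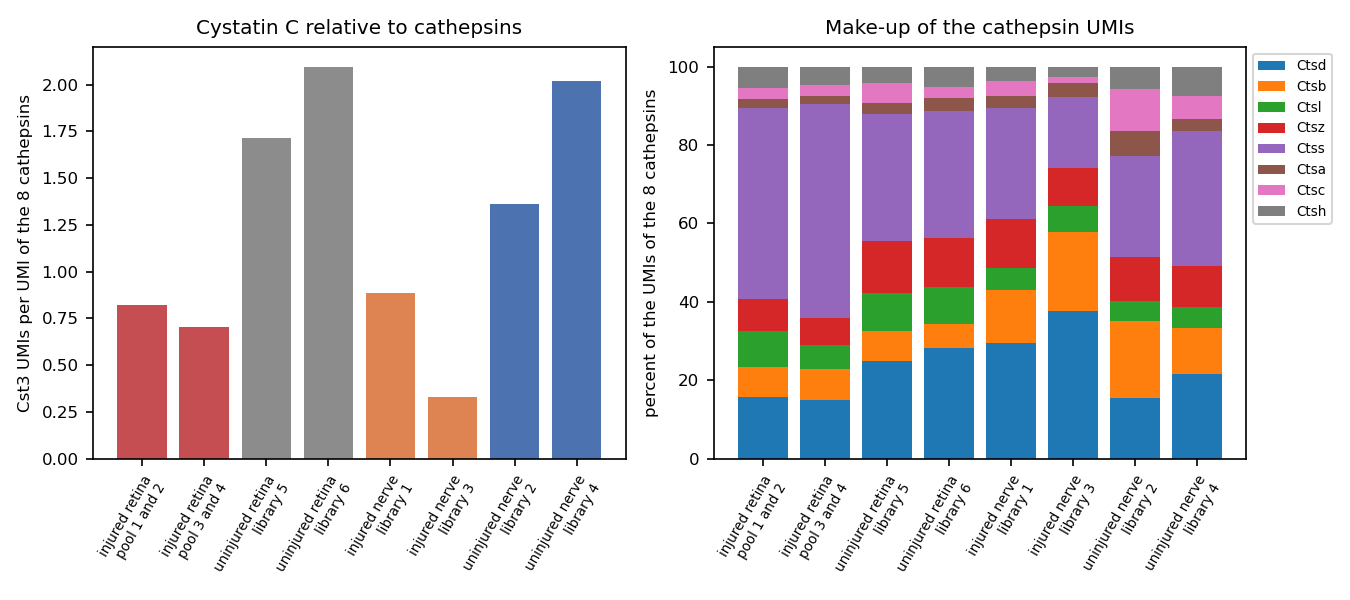
Left, Cst3 UMIs per UMI of the 8 cathepsins in each of 8 libraries (bars from 0, coloured by group); right, each cathepsin's percent of the 8 cathepsins' UMIs, stacked to 100%. The ratio was below 1 in all 4 injured libraries on this base (per UMI of the 6 cysteine cathepsins it was 1.002 in pool 1 and 2 and 1.31 in injured nerve library 1), and Ctss took 54.6% of cathepsin UMIs in injured retina pool 3 and 4.

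Detection in single cells moved with cell make-up and depth as well as level. As counted, Cst3 had a UMI in 82.6% and 61.4% of cells of the injured retina pools and in 100% of cells of both uninjured retina libraries. Without the T-like, endothelial-like and oligodendrocyte-like cells, of which the pools held T-like cells alone, it was 100% in both injured pools as well. In nerve it was seen in 95.9% and 94.4% of injured and 87.4% and 96.4% of uninjured cells. Ctsd was seen in 94.5% and 96.6% of injured nerve cells, against 63.1% and 78.6% of uninjured nerve cells. Thinned to 1000 UMIs a cell, with 297 shallower cells set aside, Ctsd was seen in 87.3% and 93.9% of injured nerve cells, against 51.1% and 64.4% of uninjured nerve cells. In injured nerve 67 and 201 cells were left out, and in uninjured nerve 19 and 9. Oligodendrocyte-like cells had a UMI of Ctsd in 92.3% and 80.9% of cells in injured nerve libraries 1 and 3. In uninjured nerve library 2 the share was 60.9%. The median depths of these cells were 2795, 1195 and 2260 UMIs. Over all cells the median depth was 1078 and 2060.5 UMIs in injured nerve and 2048 and 1470 UMIs in uninjured nerve. The share of nerve cells with a Ctsd UMI was therefore not read as the share of cells expressing it.

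Across cell clusters found without the 9 genes, 6 clusters outside the named classes differed in these transcripts. Cluster 1 held 118 injured retina cells of 119, with 2598 CPM of Ctsd, 8262 of Ctss and 13338 of Cst3, and Gm42418 and heat-shock genes such as Hspa1b among its leading genes. Cluster 3 held 28 and 12 cells of uninjured retina libraries 5 and 6 and 16 and 12 cells of uninjured nerve libraries 2 and 4, with 4508 CPM of Ctsd and 38282 of Cst3. Within cluster 3, Cst3 was 52445 and 36654 CPM in uninjured nerve libraries 2 and 4, and 33573 and 37950 CPM in uninjured retina libraries 5 and 6. Ctsl there was 876 and 955 CPM in uninjured nerve, against 1696 and 1707 CPM in uninjured retina, the same order as in whole libraries.

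Clusters 4, 5, 7 and 8 were mostly of injured nerve. Cluster 5 was shallow, at a median of 958 UMIs, with the myelin genes Mobp and Mbp leading it. Ctsd in them ran from 13300 CPM in cluster 4 to 18873 CPM in cluster 8, and Cst3 ran from 7502 CPM in cluster 8 to 18430 CPM in cluster 5. Cluster 8 thus paired the highest Ctsd with the lowest Cst3 of these 4. Within cluster 5, injured libraries 1 and 3 had 8902 and 18363 CPM of Ctsd, and the 12 cells of uninjured library 2 had 1432 CPM. In cluster 7 injured libraries 1 and 3 had 7058 and 17397 CPM, so the gap between these libraries was present within clusters as well. Because most of each cluster came from 1 group or library, a cluster cannot be told apart from its library.

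Border macrophage-like cells were seen in injured and uninjured nerve in enough cells to be set side by side. In the 29 such cells of injured library 3 and the 44 of uninjured library 2, Ctsd had 877 and 958 CPM, Ctsb 1862 and 2247 CPM, Ctsz 1013 and 1126 CPM and Ctsc 1279 and 1249 CPM. Ctss had 3458 and 1689 CPM. With 1 library a group these values have no test. Oligodendrocyte-like cells had 2883 CPM of Ctsd in injured library 3 and 1594 CPM in injured library 1, against 445 CPM in uninjured library 2. This class was named from its markers, and no doublet caller was run. Ctsd thus moved with its library in this class too, and the part of free RNA in this was not tested.

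**Figure D5:**
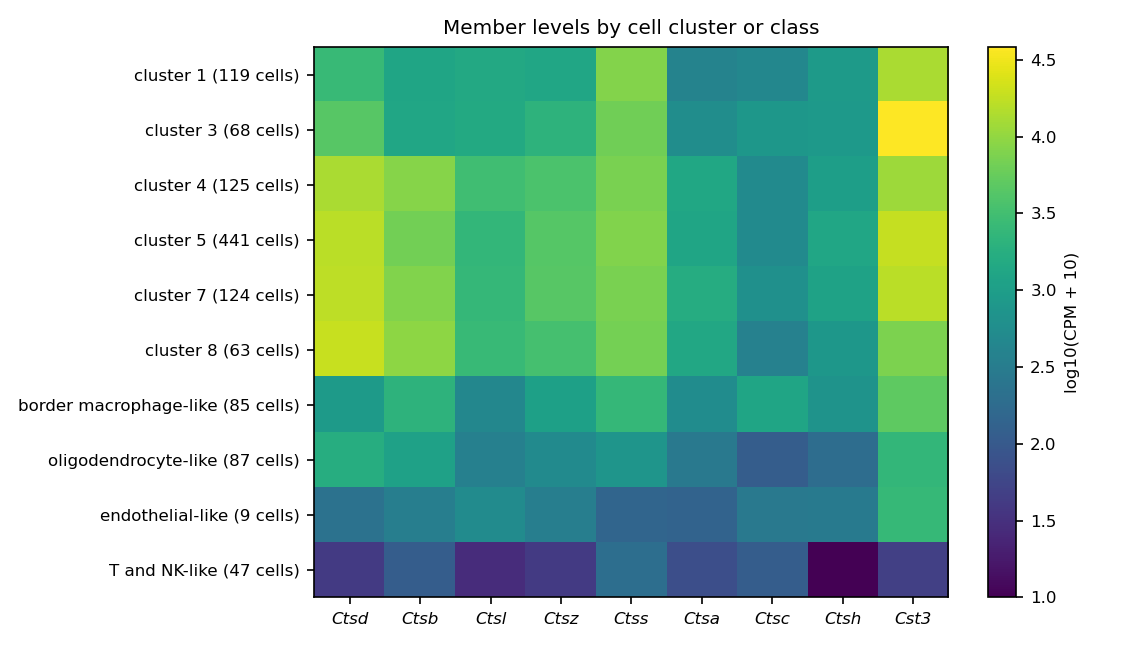
Level of the 9 genes, as log10(CPM + 10) by colour, in 6 unnamed clusters and 4 named classes (rows, with cell numbers). Ctsd is highest in clusters 4, 5, 7 and 8, mostly of injured nerve, Cst3 in cluster 3 at 38282 CPM, and T and NK-like cells stand between 0 and 186 CPM.

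Members varied together to different degrees over the 8 libraries. As a description over 8 libraries that share groups, depth and cell make-up, Ctsd and Ctsz had a Pearson correlation of 0.98 in log2(CPM + 10), Ctsb and Ctsa 0.94, and Ctsl and Ctsh 0.94. The highest value of Ctsc with another member was 0.54 (Ctsa), and that of Cst3 was 0.53 (Ctsz). Outside the 9 genes, those most like Ctsd were Mif (0.97), Trir (0.97) and Pld3 (0.96), and those most like Ctsz were Tyrobp (0.96), Cfl1 (0.96) and the phagocyte receptor Trem2 (0.96). Cst3 was most like Sowahc (0.97), Gpr34 (0.97) and Olfml3 (0.96), the last pair being microglia markers.

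The other members had these nearest genes outside the family. Ctsb was most like Pitpna (0.99), Gna12 (0.98) and Gpr137b (0.97), Ctsl like Bag1 (0.98), Aprt (0.98) and Cd300c2 (0.94), and Ctss like Hif1a (0.99), Blnk (0.99) and Dnm2 (0.97). Ctsa was most like Gng5 (0.98), the lysosomal membrane gene Lamp1 (0.98) and Tmsb4x (0.95). Ctsc was most like Trappc4 (0.95), Ptov1 (0.94) and Rgl2 (0.91), and Ctsh like Laptm5 (0.96) and Mif (0.93).

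Genes around the family were read from 4 lists. Their counts at an unadjusted p are given without the share over all genes and are a description. Of 14 other cathepsins 3 could be tested in retina, where Ctse rose and Ctso fell, and 2 in the joint fits. Ctse, an aspartic protease related to Ctsd, had 189 and 197 CPM in injured retina and 0 UMIs in uninjured retina, at least 12.7-fold higher with uninjured retina set to 3 UMIs in all (edgeR adjusted p = 0.000504). In nerve it had 167 and 206 CPM in injured libraries, against 28.6 and 47.7 CPM in uninjured libraries, from 14 UMIs, and rose by 2.45 ± 0.41 (limma adjusted p = 0.0286). T and NK-like cells had 192 CPM of Ctse, with a UMI in 40.4% of them, and the remaining injured retina cells had 195 and 179 CPM. The part of annotation or free RNA in these levels, and in the 0 UMIs of uninjured retina, was not tested. Ctse was also higher in uninjured nerve than in uninjured retina (limma adjusted p = 0.0133), at least 2.15-fold with the same setting. Its interaction was -1.99 ± 0.58 and did not pass (0.105), and between injured tissues it stood at 0.07 (0.944). Ctsf did not pass in any comparison, at -0.91 in retina (edgeR adjusted p = 0.136), 0.25 in nerve (limma adjusted p = 0.770), 0.97 for the interaction (0.326) and -0.22 and 0.75 between uninjured and between injured tissues (0.757 and 0.320). Ctso, a cysteine cathepsin, had 21.2 and 16.1 CPM in injured retina, against 49.0 and 106 CPM in uninjured retina from 7 and 6 UMIs (-1.74 ± 0.52, edgeR adjusted p = 0.0376).

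Of 16 cystatins and other inhibitors 2 could be tested in retina and 4 in the joint fits, and none passed in any comparison, while 1 or 2 had an unadjusted p under 0.05 in each. Cystatin B (Cstb), which acts inside cells, had 290 and 445 CPM in injured nerve, against 117 and 47.7 CPM in uninjured nerve (2.52 ± 0.57, limma adjusted p = 0.0843). Cystatin F (Cst7), an inhibitor known from activated microglia, had 66.3 and 425 CPM in injured nerve, against 2 UMIs and 0 UMIs in uninjured nerve (4.11 ± 1.04, limma adjusted p = 0.111). In retina Ctla2b stood at -2.07 (edgeR adjusted p = 0.0590) and Cstb at 0.67 (0.235). Between tissues Serpinb6a stood at 2.87 without injury (0.0542) and 1.46 with it (0.390), Ctla2a at 2.05 without injury (0.320) and Cst7 at 2.66 with it (0.219). The interactions of Cst7 and Cstb were 3.56 (0.222) and 1.48 (0.336).

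Of 14 processing enzymes and cofactors 12 were tested in retina, where 2 fell. Lgmn, the asparaginyl endopeptidase that cleaves cathepsin precursors, had 1271 and 1427 CPM in injured retina, against 2682 and 2850 CPM in uninjured retina (-1.02 ± 0.26, edgeR adjusted p = 0.0212). Ifi30, a lysosomal thiol reductase of antigen processing, had 315 and 210 CPM in injured retina, against 658 and 845 CPM in uninjured retina (-1.44 ± 0.28, edgeR adjusted p = 0.00555). Ifi30 was at 0 UMIs in all 4 nerve libraries, and whether annotation or tissue gave that was not tested. In nerve none of 10 passed, 3 were higher at an unadjusted p under 0.05, and the smallest p-values were those of Grn (1.33, limma adjusted p = 0.192) and Psap (1.11, 0.237). Prcp, a serine carboxypeptidase, was higher in uninjured nerve, at 109 and 155 CPM, than in uninjured retina, at 42.0 and 35.2 CPM from 6 and 2 UMIs (1.43 ± 0.37, limma adjusted p = 0.0423). Between injured tissues Prcp stood at 0.69 (0.368), and the interaction of Grn was 1.52 (0.218). None of the 10 passed in those last comparisons, where 0 and 3 had an unadjusted p under 0.05.

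Of 16 genes of sorting and lysosomal transcription 7 were tested in retina and 5 in the joint fits, and none passed. At an unadjusted p under 0.05 there were 2 in retina and 0 in each limma comparison. In retina Scarb2 stood at -1.10 (edgeR adjusted p = 0.0705) and Sort1 at 1.67 (0.0981). In nerve Vps35 stood at 0.79 (limma adjusted p = 0.418) and M6pr, a mannose 6-phosphate receptor, at 0.42 (0.608), near the median of 0.33 over all genes. The interactions of Scarb2 and Vps35 were 1.04 (0.381) and 0.90 (0.461). Between tissues Vps26a and Tfe3 stood at 1.02 (0.289) and 0.84 (0.317) without injury, and Vps35 and Scarb2 at 0.98 (0.309) and 0.93 (0.314) with it.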

How the data were processed

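Values were read from a table of 52181 entries by 1168 cells. The submitters' processing notes name mm10, Cell Ranger 1.3, bcl2fastq 2.17.1.14 and Seurat 4.0.3, and the labels state a filter of 200 to 6500 genes a cell and name harmony. From the values, the deposited retina columns are raw UMI counts. The deposited optic nerve columns are natural log values, ln of 1 plus 10000 times the UMI share of a cell, and all 1374534 values above 0 gave whole UMIs within 0.01, so 100% were recovered. The difference in unit coincides with tissue.

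UMIs were summed per library. For the retina comparison edgeR 4.0.16 was run on 4 libraries (quasi-likelihood test, TMM, filterByExpr). The other comparisons used limma 3.58.1 (trend) on log2(TMM CPM + 10) over 8 libraries, for genes with a UMI in each tissue and a mean of at least 50 CPM, because nerve counts are recovered. Changes are on that scale, which understates those of low genes, and a gene was called under a Benjamini-Hochberg adjusted p of 0.05. Printed CPM are without TMM. Both tests were run on simulated counts with known changes, built from a single profile with a fixed spread. Those counts hold no differences in cell make-up between libraries, so the check does not extend to them. Clustering in scanpy 1.11.5 left out the members and lists (Leiden at 0.5, 15 neighbours, 30 components, 2000 variable genes). A name needed 2 markers of that type in the top 10 genes of a cluster and 3 in the top 50. A cell with 5 of 14 endothelial markers was called endothelial-like. No doublet caller was run. Floors of 3 UMIs cover counting error only. Of 31833 Ensembl entries 31394 matched a symbol.

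The members and the 4 lists were chosen with earlier results of these data known. All 9 members are named in each comparison, and from each list those that passed or, where none did, the 2 with the smallest p. For each member, the 3 genes with the highest correlation are named. Some genes that these rules name are not reported here. Alternatives (scaling, filter, pseudocount, test, weighting of cells, cell classes left out, each library left out) were run with DESeq2 1.42.0 beside these tools.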

Additional observations from a re-analysis of the deposited data

Results flagged for a closer look

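The effect of crush differed between tissues for Ctsd, whose change in optic nerve exceeded that in retina by 3.78 (log2; limma adjusted p = 0.0197), and for Ctsz, by 2.92 (limma adjusted p = 0.0288). In retina both were lower in each of the 2 injured pools than in each of the 2 uninjured libraries, and in nerve both were higher in each of the 2 injured libraries. The pools of injured retina held T-like cells and uninjured nerve library 2 held border macrophage-like and oligodendrocyte-like cells, each lower in Ctsd than the remaining cells of the same library. In injured retina pools 1 and 2 and 3 and 4 Ctsd was at 26.5 and 42.5 CPM in T-like cells and 2614 and 2517 CPM in the remaining cells, and in uninjured nerve library 2 at 958 and 445 CPM in border macrophage-like and oligodendrocyte-like cells and 2779 CPM in the remaining cells. Neither interaction passed once T-like, endothelial-like and oligodendrocyte-like cells were left out (3.15, adjusted p = 0.0884, and 2.31, adjusted p = 0.103). Groups of 2 libraries are too small for a test of single outlying libraries.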

How the results depend on the processing

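Of 765 recomputed changes of the 9 genes over 5 comparisons, 732 kept their sign, and 614 kept sign and side of the threshold. No paired analysis was possible because the injured and uninjured samples of a tissue share no replicate number and the injured retina columns are pools. Depth limits the uninjured retina and uninjured nerve library 4 most. The cause of the changes below was not tested.

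In retina, 653 genes were called, against 341 with the DESeq2 Wald test, 258 with edgeR over 8 libraries, 346 with limma over 8 libraries and 406 to 699 with a library left out. The 3 members called became 1 with DESeq2 size factors, without the filter, and with edgeR or limma over 8 libraries, and 0 to 4 with a library left out. Ctsb turned to 0.026 and Ctsh to 0.078 without the filter, to 0.092 and 0.068 with limma, to 0.047 and 0.084 without T-like, endothelial-like and oligodendrocyte-like cells, and to 0.056 and 0.096 also without border macrophage-like cells. With a library left out Ctsb ranged from -0.39 to 0.34 and Ctsh from -0.20 to 0.15. Ctss turned to -0.020 with cells weighted equally.

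In nerve, 15 genes were called (12 higher and 3 lower, against 8 and 7 by library total and 10 and 5 with DESeq2 size factors). The count was 6 without the filter or with a pseudocount of 1, 27 with 50, 42 with mean ln values, 29 with edgeR, 88 with cells weighted equally, 4 without the 3 classes, 58 also without border macrophage-like cells and 3 to 29 with a library left out. The 1 member called became 2 by library total, with a pseudocount of 50 or with edgeR, 0 without the filter, with a pseudocount of 1 or without the 3 classes, 4 with mean ln values, 5 with equal weights, 3 also without border macrophage-like cells, and 0 to 4 with a library left out. Ctsc turned to -0.17 by library total, -0.076 with mean ln values, -0.15 with edgeR, -0.073 with equal weights and -0.0059 without the 3 classes, and ranged from -0.15 to 0.67 with a library left out. Cst3 turned to -0.50 with equal weights and -0.45 also without border macrophage-like cells.

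The interaction called 44 genes, against 101 by library total, 68 with DESeq2 size factors, 292 with mean ln values, 80 with edgeR, 227 with equal weights, 22 without the 3 classes, 14 also without border macrophage-like cells and 2 to 103 with a library left out. Its 2 members became 0 without the filter, without the 3 classes or also without border macrophage-like cells, 7 with mean ln values, 5 with equal weights and 0 to 5 with a library left out.

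Between uninjured tissues 197 genes were called, against 127 with a pseudocount of 1, 533 with mean ln values, 370 with equal weights, 71 without the 3 classes, 54 also without border macrophage-like cells and 90 to 213 with a library left out. The 1 member became 5 by library total, 3 with DESeq2 size factors, 6 with mean ln values, 2 with equal weights, 0 without the filter, with a pseudocount of 1, without the 3 classes or also without border macrophage-like cells, and 0 to 2 with a library left out. Ctsb turned to -0.29 and Ctsc to -0.62 with mean ln values, Ctsc to -0.23 with equal weights, and also without border macrophage-like cells Ctsb to -0.11, Ctsc to -0.23 and Ctsh to 0.066. With a library left out Ctsb ranged from -0.30 to 0.43 and Ctsc from -0.61 to 0.63.

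Between injured tissues 69 genes were called, against 574 with mean ln values, 228 with edgeR, 184 with equal weights, 31 without the 3 classes, 31 also without border macrophage-like cells and 10 to 92 with a library left out. The 1 member became 3 by library total, 2 with DESeq2 size factors, 4 with mean ln values, edgeR or equal weights, 0 without the filter, with a pseudocount of 1 or without the 3 classes, and 0 to 4 with a library left out. Ctss turned to 0.41 with mean ln values and 0.070 with equal weights. With a library left out Ctss ranged from -0.47 to 0.17 and Ctsh from -0.033 to 0.79.

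The median share of cells with a UMI of a member, thinned to 1000 UMIs, was 57.5% and 38.2% in injured retina (82.6% and 59.6% as counted), 66.0% and 74.4% in uninjured retina (90.3% and 100%), and 45.7% and 51.0% in uninjured nerve (58.3% and 64.3%). Without the 3 classes it was 100% and 97.0% in injured retina and 69.2% and 72.7% in uninjured nerve, and the summed level was 29825 and 28986 CPM in injured retina (27491 and 24641 with all cells) and 49617 CPM in uninjured nerve library 4 (30720).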
